A study of Pimephales promelas with 80 samples.

Results

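Fathead minnow larvae (Pimephales promelas) kept in water with 6PPD at a nominal 0.848 mg/L were set against unexposed control larvae. The labelled chemical and dose define the groups, and this comparison was chosen with earlier results of these data known. They comprise 5 exposed and 10 control larvae, 15 of the 80 larvae in the series. The series asks whether 6PPD or its quinone changes the transcriptome of this fish.

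6PPD is an antioxidant added to tire rubber, where it reacts with ozone before the ozone can attack the rubber. That reaction forms 6PPD-quinone (6PPD-Q), which washes off roads into streams and is acutely lethal to coho salmon, while fathead minnows tolerate it far better. RNA from a whole fish larva mixes the transcripts of every organ, so a level in such a library is a sum over tissues.

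Each library came from the whole body of 1 larva, held unfed in the well of a plate for 24 h. The exposed group received 6PPD at 0.848 mg/L and the control group received neither chemical. The exposed larvae were also set against further groups of the series: 20 larvae at 4 lower doses of 6PPD (0.00848, 0.0268, 0.0848 and 0.268 mg/L, 5 larvae each), 5 larvae at 2.68 mg/L 6PPD, and 5 larvae at 0.878 mg/L 6PPD-Q. For the genes called against controls, values of these groups and of the other 6PPD-Q groups (5 larvae each, up to 8.78 mg/L) against the same controls are given beside them. Per the labels, wells held 0.3% DMSO as solvent, which is not stated for the control wells on their own, and the doses are nominal. All larvae came from several crosses, pooled and sorted at random. The labelled age is 5 days, given in part of the labels as after hatching and in part as after fertilization. The sample names of the 5 exposed larvae and 8 controls hold the letter C, and those of control replicates 1 and 2 the letter A. The letter is read here as a plate, which the names do not state. The p-values below set differences between groups against the spread between single larvae. For single genes that spread was estimated over all 80 libraries.

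Sequencing depth and library composition did not differ detectably between the groups. Exposed libraries held 19.4 to 20.9 M counts in genes and detected 22798 to 22839 genes, against 16.2 to 21.7 M counts and 22608 to 22927 genes in controls. All 7 measures compared had an adjusted p of 0.929 (exact permutation test, two-sided, 5 against 10 larvae, Benjamini-Hochberg over the 7). Reads aligned to several places took 6.56% to 7.72% of exposed and 6.00% to 9.76% of control libraries, so genes in near-identical copies are undercounted in both groups. The identifiers of the genes begin with FMg and are not paired with names in the files, and 0 of 26150 matched the RefSeq table of assembly fPimPro1.hap1.1. Genes are therefore described by level and fold change. Identifiers are printed for 4 of them, and no gene is given a function. The labelled tissue could not be checked against marker genes for the same reason.

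At 0.848 mg/L, 6PPD changed few genes, and mostly upwards. Of 21599 genes tested, 190 passed the adjusted p of 0.05 (0.88%) and are referred to as called: 162 were higher in exposed larvae than in controls (0.75%) and 28 were lower (0.13%). Higher genes made up 85.3% of the called ones, while over all tested genes 49.1% had a positive log2 fold change and the median was -0.00. At an unadjusted p under 0.05, 1749 genes (8.1%) passed and the directions were closer to balance, with 965 genes higher (4.47%) and 784 lower (3.63%). Adjusted p-values of single genes are from edgeR's quasi-likelihood test with Benjamini-Hochberg adjustment over all tested genes. In RNA from whole larvae, fewer cells of a type and less RNA per cell cannot be told apart.

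**Figure D1:**
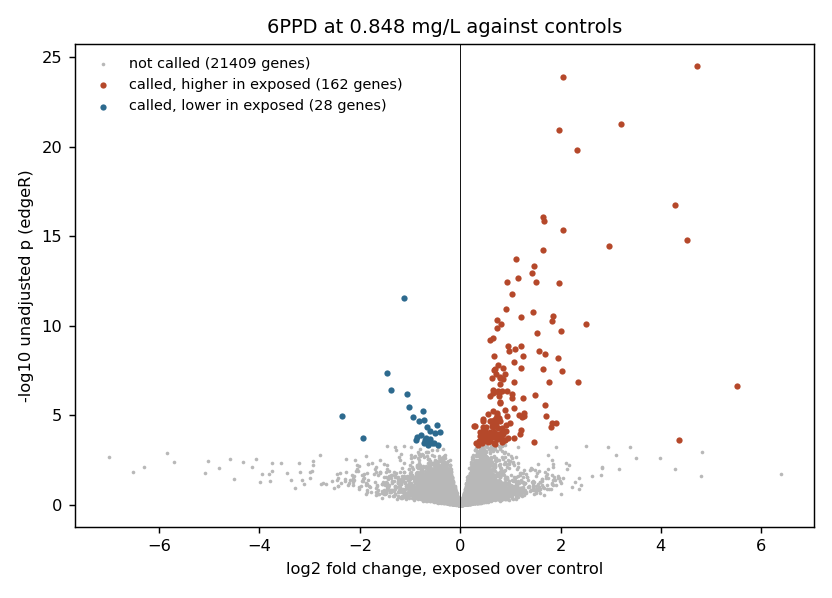
Each point is 1 of 21599 tested genes, with the log2 fold change of exposed over control larvae on the x axis and the -log10 of the unadjusted edgeR p on the y axis. The 162 genes called higher reach far beyond the 28 called lower in both size and p, and grey points at large fold changes are genes that were not called.

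The higher genes rose by a median log2 fold change of 0.81. Of the 162, 134 exceeded a fold of 1.5, 60 exceeded a log2 fold change of 1, 14 exceeded 2 and 6 exceeded 3. Their median level was 43.0 CPM in exposed larvae, against 21.9 CPM in controls (CPM are counts divided by the TMM-scaled library size in units of 10 to the power 6, not by gene length). The median over all tested genes was 11.7 CPM. Of the 162, 146 averaged at least 5 CPM over the 15 larvae and 23 averaged at least 100. The shares of all tested genes at these levels were not counted, so both counts are given as a description.

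The lower genes were fewer and their changes smaller. The 28 fell by a median log2 change of -0.73, with 22 beyond a fold of 1.5, 7 beyond a log2 change of -1 and 1 beyond -2. Their median level was 8.56 CPM in exposed larvae, against 12.8 CPM in controls. The count of lower genes depended on single larvae and on the method: it was 13 without exposed larva 5, 15 without exposed larva 2 and 52 by DESeq2.

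For most called genes the groups did not overlap. Every exposed larva lay above every control in 102 of the 162 higher genes (63.0%), and below every control in 15 of the 28 lower genes (53.6%). Among all 21599 tested genes, called or not, such a separation occurred in 0.727% upwards and 0.162% downwards. The genes were called on these same larvae, so the separation follows in large part from the choice and is given as a description. In the other called genes the ranges of the groups touched, although all 5 exposed larvae lay above the control mean in 158 of the 162 and below it in all 28. The median coefficient of variation of the higher genes was 17.5% in exposed larvae and 16.2% in controls, against 18.5% and 18.2% over all tested genes. The test sets a difference against the spread between larvae, so these values are not free of the choice either.

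**Figure D2:**
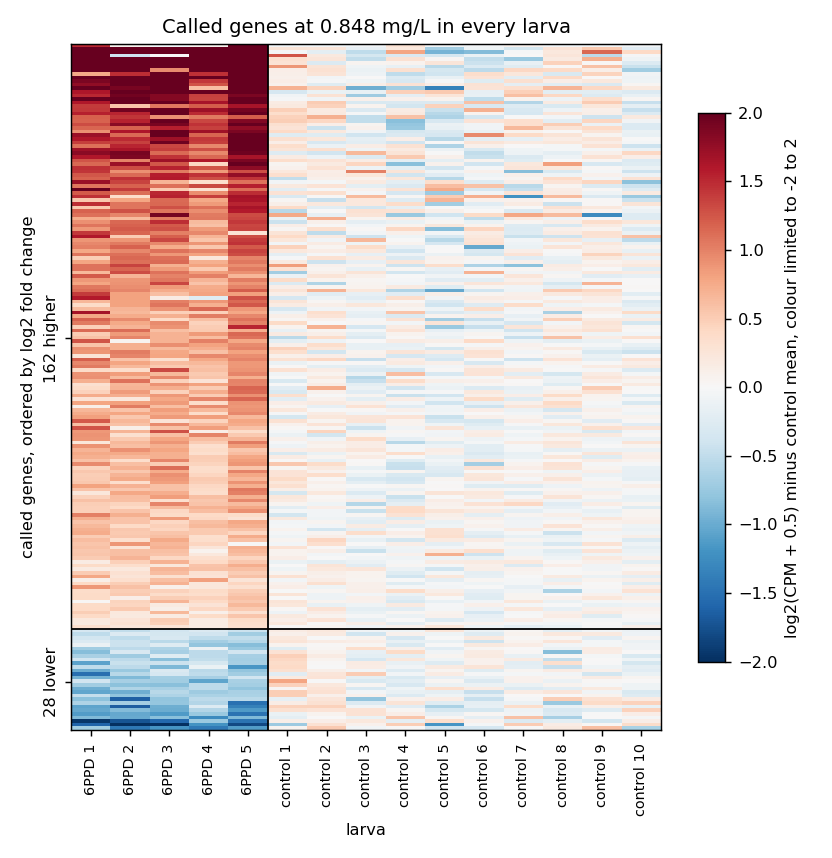
Each line is 1 of the 190 called genes, ordered by fold change, and each column 1 larva, with the 5 exposed larvae left of the 10 controls. Colour gives log2(CPM + 0.5) minus the control mean, limited to values between -2 and 2. Exposed larva 5 has the darkest red over the 162 higher genes and exposed larva 4 the palest.

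The gene with the largest rise among those eligible for naming was FMg014221. It had 219, 145, 111, 125 and 347 CPM in exposed larvae 1 to 5, against 4.14 to 10.2 CPM in controls (median 7.33). Every exposed larva was far above every control, and the exposed larvae differed among themselves by a factor of about 3. The means were 189 ± 97.2 CPM in exposed larvae (SD, n = 5) and 7.13 ± 1.83 CPM in controls (SD, n = 10), a log2 fold change of 4.73 ± 0.29 (SE; adjusted p = 6.64e-21, edgeR).

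FMg014186 came next and was less even. It had 100.3, 93.5, 45.9, 14.0 and 145 CPM in exposed larvae 1 to 5, against 1.40 to 7.54 CPM in controls (median 3.06). All exposed larvae exceeded the highest control, and larva 4 came nearest to it, at 14.0 against 7.54 CPM. Its log2 fold change came to 4.51 ± 0.44 (SE; adjusted p = 3.61e-12, edgeR).

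Of the 10 genes with the largest rises, 9 did not overlap between the groups and exposed larva 5 was highest in all 10. The third had 217, 206, 234, 182 and 493 CPM in exposed larvae 1 to 5, against 20.9 to 39.2 CPM in controls, and rose by 3.20 ± 0.23 on the log2 scale. The fourth had 132, 188, 224, 214 and 294 CPM in exposed larvae, against 17.4 to 47.6 CPM in controls, and rose by 2.97 ± 0.30. Both stood clear of the controls in every exposed larva.

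Ranks 5 and 6 of these genes varied widely between exposed larvae. The fifth had 105, 58.7, 28.1, 87.3 and 141 CPM, against 8.71 to 19.3 CPM in controls. The sixth had 15.1, 25.4, 73.5, 24.9 and 91.1 CPM, against 5.99 to 12.1 CPM in controls. Larva 3 was the lowest in the fifth gene and the second highest in the sixth, so the order of larvae was not the same from gene to gene.

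The seventh gene was the most even of the 10. It had 28.9, 31.3, 28.2, 25.4 and 31.7 CPM in exposed larvae 1 to 5, against 4.62 to 7.62 CPM in controls. Its means of 29.1 ± 2.56 CPM in exposed larvae and 5.75 ± 0.941 CPM in controls gave a log2 fold change of 2.34 ± 0.18 (adjusted p = 6.6e-17, edgeR). Relative to the mean, exposed larvae differed among themselves no more than controls did.

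The genes ranked 8 to 10 each rose by about 4-fold, with log2 fold changes of 2.06 ± 0.13, 2.04 ± 0.19 and 2.04 ± 0.33. The tenth is the single overlap among the 10. It had 53.3, 40.9, 56.5, 16.2 and 74.0 CPM in exposed larvae, against 3.86 to 17.4 CPM in controls. Exposed larva 4 fell inside the control range and the other four lay above it.

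Among genes outside the naming rule, chosen after their values were seen, 3 had comparable or larger fitted changes at low counts. In the first, exposed larvae 1 to 5 had 13.3, 11.7, 4.70, 7.33 and 25.7 CPM, against 0.151 to 1.29 CPM in controls, a log2 fold change of 4.28 ± 0.38 (adjusted p = 6.15e-14, edgeR). In the second, with a log2 fold change of 4.36 (adjusted p = 0.0308, edgeR), larvae 1, 4 and 5 had 9.36, 23.7 and 9.70 CPM, while larvae 2 and 3, at 0.139 and 0.354 CPM, lay within the control range of 0.0920 to 1.53 CPM. The third, which has the largest fitted change of all called genes, had 18, 1, 0, 1 and 81 counts in exposed larvae 1 to 5, against 3 counts in total over the 10 controls. The first of these was raised in every exposed larva, while the calls of the others rested on 3 and 2 larvae.

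Among the genes that fell furthest, FMg017122 had 3.91, 2.36, 2.78, 5.32 and 3.34 CPM in exposed larvae 1 to 5, against 5.42 to 18.5 CPM in controls (median 14.0). The highest exposed larva was just under the lowest control. The means were 3.54 ± 1.15 CPM in exposed larvae (SD, n = 5) and 13.6 ± 4.30 CPM in controls (SD, n = 10), which is a change of -1.94 ± 0.49 on the log2 scale (SE; adjusted p = 0.0253, edgeR). The call was lost by limma-voom and without any of exposed larvae 1, 2, 3 or 5, with adjusted p-values up to 0.219 over the alternatives.

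FMg007996 fell more securely. It had 19.6, 23.0, 25.8, 46.3 and 27.4 CPM in exposed larvae 1 to 5, against 59.6 to 98.6 CPM in controls (median 83.1). All exposed larvae were below every control, with larva 4 the nearest to them. Its log2 fold change came to -1.46 ± 0.24 (SE; adjusted p = 1.71e-05, edgeR), and the call held in every alternative tried.

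**Figure D3:**
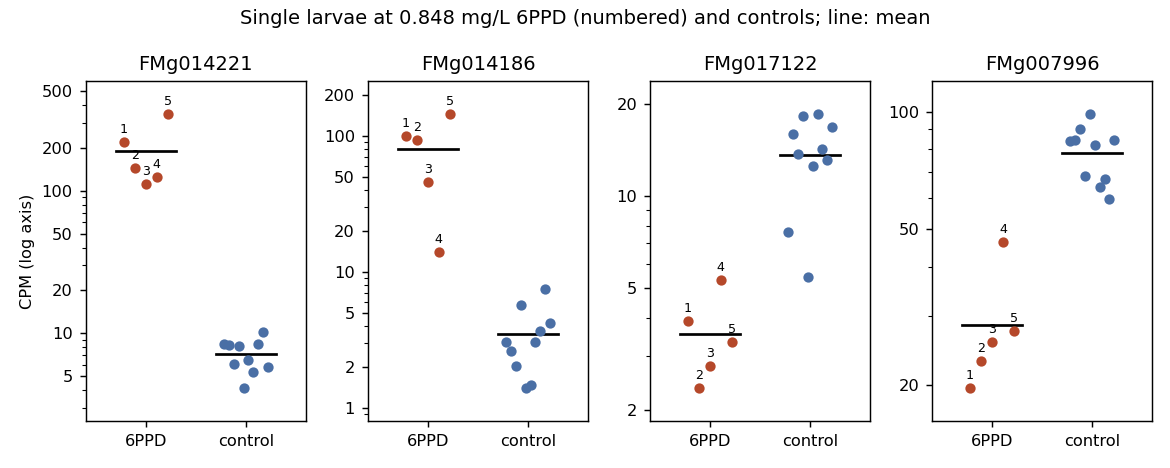
Points are single larvae, with the 5 exposed larvae (numbered) left of the 10 controls in each panel, CPM is on a log axis and lines are means. The groups do not overlap in any of the 4 genes, and exposed larva 4 is the exposed larva nearest to the controls in FMg014186, FMg017122 and FMg007996.

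Of the 10 genes with the largest falls among those eligible for naming, 8 did not overlap between the groups. Called genes with a mean under 5 CPM are not ranked here, among them falls of -2.36, -1.38 and -1.06 on the log2 scale. The third had 14.9, 16.0, 14.8, 19.7 and 11.6 CPM in exposed larvae 1 to 5, against 27.2 to 40.4 CPM in controls, a log2 fold change of -1.11 ± 0.13 (adjusted p = 2.92e-09, edgeR), the smallest p among the lower genes. The fourth had 29.7, 19.6, 31.6, 51.8 and 24.2 CPM in exposed larvae, against 40.2 to 86.4 CPM in controls, and larva 4 lay inside the control range. Larva 4 was the least changed exposed larva in 7 of these 10 genes. Those ranked 5 to 10 fell by -0.88 to -0.72 on the log2 scale, and ranks 5, 7 and 9 lost their calls in 7, 4 and 11 of 23 alternatives, single omitted larvae and the omission of plate A among them.

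The 5 called genes with the highest CPM among those that rose did so by smaller folds than the 10 genes picked for the largest rises. Their log2 fold changes ran from 0.72 to 1.54, against a median of 0.81 over all 162 higher genes. As CPM are not divided by gene length, these are the most counted genes, which need not be the most abundant transcripts. The first had 1169, 964, 1197, 1193 and 1038 CPM in exposed larvae 1 to 5, against 488 to 801 CPM in controls. Its means were 1112 ± 105 CPM in exposed larvae and 674 ± 111 CPM in controls, a log2 fold change of 0.72 ± 0.16 (adjusted p = 0.00507, edgeR). No exposed larva reached down to the highest control, and larva 5, which led the 10 largest rises, was the fourth highest here.

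Ranks 2 and 3 of these genes rose by larger folds than the first. The second had 863, 1036, 777, 630.0 and 892 CPM in exposed larvae, against 207 to 408 CPM in controls, a log2 fold change of 1.54 ± 0.21 (adjusted p = 1.74e-07, edgeR). The third had 747, 671, 788, 649.5 and 939.6 CPM in exposed larvae, against 207 to 330 CPM in controls, a log2 fold change of 1.47 ± 0.16 (adjusted p = 7.49e-11, edgeR). Neither overlapped between the groups. Ranks 4 and 5 averaged 487 ± 86.0 and 437 ± 100.1 CPM in exposed larvae and 211 ± 35.6 and 234 ± 30.2 CPM in controls, again without overlap.

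Among the lower genes, 1 of 28 averaged at least 100 CPM. It had 211, 188, 176, 159 and 171 CPM in exposed larvae 1 to 5, against 192 to 304 CPM in controls. Larva 1 overlapped the control range. The log2 fold change was -0.51 ± 0.12 (adjusted p = 0.0145, edgeR), and the call was lost without exposed larva 3, 4 or 5 and without the plate A libraries.

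Summed over the called genes, the rise took up a visible share of the library. The 162 higher genes held 1.42%, 1.40%, 1.44%, 1.25% and 1.63% of TMM-scaled counts in exposed larvae 1 to 5, against 0.646% to 0.743% in controls. The 28 lower genes held 0.0526%, 0.0511%, 0.0543%, 0.0573% and 0.0505% in exposed larvae, against 0.0766% to 0.103% in controls. The genes were chosen on these larvae, so the separation of the groups in either sum is set by the choice. The order of the exposed larvae is not free of it either, since the calls rest on each of them to a different degree, and it is given as a description.

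In that order, larva 5 stood furthest from the controls in the higher genes and larva 4 nearest. The median log2 deviation from the control mean over the 162 genes was 0.87, 0.78, 0.85, 0.64 and 0.98 in larvae 1 to 5. Larva 5 was the highest exposed larva in 77 of the 162 genes, against 16.5% of all tested genes, and larva 4 the lowest in 67, against 17.5% of all tested genes. Larva 5 was above every control in 158 of the 162 genes and larva 4 in 131.

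The lower genes gave larva 4 the same place. Their median log2 deviation was -0.76, -0.70, -0.67, -0.53 and -0.69 in larvae 1 to 5, and larva 4 was the least lowered exposed larva in 13 of 28 genes. Which larva was the most lowered depended on the measure. Larva 1 had the largest median deviation. Larvae 1, 2 and 5 were the lowest in 8, 7 and 7 genes, against 24.5%, 19.7% and 16.5% of all tested genes. Larva 5 held the smallest summed share and was below every control in 26 of 28 genes, against 21 to 25 in the other exposed larvae. Without larva 5, 118 genes were called higher and 13 lower, and 128 of the 190 calls were kept, against 147 to 168 without any other exposed larva.

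The plate A controls sat slightly high in both gene sets. Their median log2 deviations from the control mean were 0.10 and 0.08 over the 162 higher genes, where plate C controls ranged from -0.06 to 0.06. Over the 28 lower genes they were 0.19 and 0.17, where plate C controls ranged from -0.12 to 0.02. Without the plate A libraries, the names of all larvae compared hold the letter C. In that fit 172 genes were called higher and 21 lower, with 168 of the 190 calls kept. The part of plate in single genes was not tested beyond this.

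The exposed larvae were also set against the 20 larvae at the 4 lower 6PPD doses, a comparison without any control larva. It called 253 genes (1.17%), 223 higher (1.03%) and 30 lower (0.139%) at 0.848 mg/L. Of the genes called against controls, 142 of 162 were again called higher and 18 of 28 again lower, and none was called the opposite way. Both comparisons use the same 5 exposed larvae, so the repeated calls are not independent. Without exposed larva 5 this comparison called 166 genes, with 119 of the 162 and 9 of the 28 among them.

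The median levels of FMg014221, FMg014186 and FMg007996 at the lower doses were close to those of controls. FMg014221 had at least 111 CPM in the exposed larvae, against 4.11 to 10.7 CPM over the 20 larvae at lower doses (median 7.51) and 4.14 to 10.2 CPM in controls. FMg014186 had 14.0 to 145 CPM in the exposed larvae, against 0.464 to 9.47 CPM over the lower doses (median 3.14). FMg007996 had 19.6 to 46.3 CPM in the exposed larvae, against 44.8 to 139.7 CPM over the lower doses (median 86.3). The groups overlapped in the last of these genes through exposed larva 4, and in neither of the others. The third most counted rise, singled out here after its values were seen, had 649.5 to 939.6 CPM at 0.848 mg/L. It had 336 to 400.0 CPM at 0.268 mg/L and 207 to 330 CPM in controls. All 5 larvae at 0.268 mg/L lay above every control in that gene. Its log2 fold change there of 0.41 was not called (adjusted p = 0.9998, edgeR). The share of all tested genes that separated so at 0.268 mg/L was not counted. FMg017122 had 2.36 to 5.32 CPM in the exposed larvae, against a median of 7.11 CPM over the lower doses and of 14.0 CPM in controls, and its difference from the lower doses was not called (log2 difference -1.34, adjusted p = 0.201, edgeR).

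The comparison with lower doses added 81 higher and 12 lower genes to those called against controls. All 81 and all 12 had the same sign against controls, and 71 and 12 of them had an unadjusted p under 0.05 there (edgeR). Over all tested genes, 4.47% passed that threshold as higher and 3.63% as lower. Both comparisons use the same 5 exposed larvae, so the shared sign and low p follow in large part from the choice. As a dose series against the same controls, the median log2 fold change of the 162 higher genes was 0.12, -0.06, 0.08, 0.14, 0.81 and 1.33 at 0.00848, 0.0268, 0.0848, 0.268, 0.848 and 2.68 mg/L. That of the 28 lower genes was -0.13, -0.13, -0.18, -0.15, -0.73 and -0.80. At the 4 lower doses 0 of the 190 genes was called, where at most 0.00463% of all tested genes were in either direction.

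**Figure D4:**
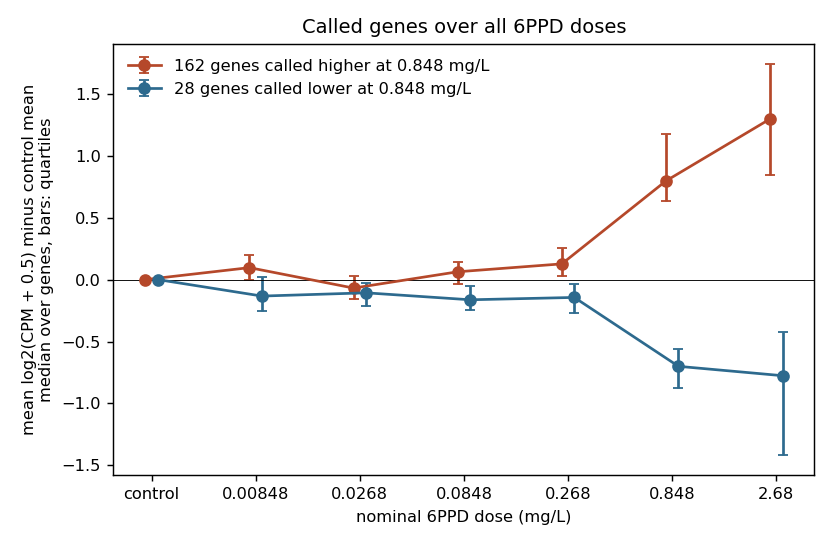
Points are medians over the 162 genes called higher and the 28 called lower at 0.848 mg/L, bars are quartiles over genes, the y axis is the group mean of log2(CPM + 0.5) minus the control mean and the x axis the nominal 6PPD dose. Both curves stay near 0 up to 0.268 mg/L and leave it at 0.848 mg/L, the dose at which the genes were chosen.

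The lower genes were slightly under the controls in every other group. Their median log2 fold change ranged from -0.18 to -0.11 in the 12 groups of the series other than the upper 6PPD doses of 0.848 and 2.68 mg/L, 8 groups of 6PPD-Q among them. All these values share the 10 controls, of which the plate A larvae are the highest in these genes. The genes were chosen as lower than these same controls, so the sign of the medians is not free of that choice. Over the same 12 groups the median of the higher genes ranged from -0.06 to 0.25.

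At 2.68 mg/L, most of the called genes were changed too, and many were further from controls. Against the same controls, 155 of the 162 were called higher at 2.68 mg/L, where 12.4% of all tested genes were. Of the 28, 22 were called lower, where 9.72% of all tested genes were. The genes were chosen against these same controls, so such repeated calls are favoured by the choice. Set directly against 2.68 mg/L, larvae at 0.848 mg/L differed in 1575 genes (7.29%), 570 higher (2.64%) and 1005 lower (4.65%). That count fell to 696 when the plate A larva of the 2.68 mg/L group, its replicate 1, was left out.

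Of the 162 higher genes, 57 were lower at 0.848 than at 2.68 mg/L, 2 were higher, and for 103 the difference was not called. The median log2 difference of the 103 was -0.28, so that a missing call does not show equal levels. Of the 28 lower genes, 10 were less reduced at 0.848 than at 2.68 mg/L, 1 was more reduced and 17 were not called. Without replicate 1 at 2.68 mg/L, 52 of the 162 and 8 of the 28 were called as further from controls at 2.68 mg/L, and in a fit of the compared groups alone 43 and 6 were.

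**Figure D5:**
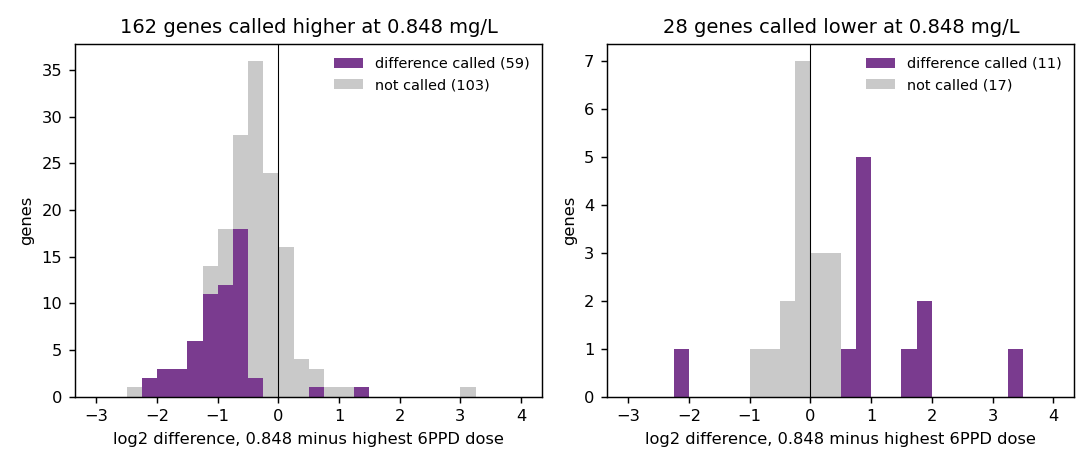
Histograms of the log2 difference between 0.848 and 2.68 mg/L 6PPD (0.848 minus 2.68, x axis) over the 162 genes called higher and the 28 called lower at 0.848 mg/L, with genes whose difference was called in purple, stacked on the others in grey. Of the 59 purple genes on the left, 57 lie below 0, and of the 11 on the right, 10 lie above 0.

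Among the named genes the distance to 2.68 mg/L varied from none detected to large. FMg014221 averaged 189 ± 97.2 CPM at 0.848 mg/L and 365 ± 77.9 CPM at 2.68 mg/L (SD, n = 5 each), a log2 difference of -0.95 with a 95% interval from -1.60 to -0.29 that was not called (adjusted p = 0.0646, edgeR). FMg014186 averaged 79.8 ± 51.0 CPM at 0.848 mg/L and 278 ± 77.5 CPM at 2.68 mg/L, which differ by -1.80 on the log2 scale (-2.80 to -0.79; adjusted p = 0.0148, edgeR). FMg007996 averaged 28.4 ± 10.4 CPM at 0.848 mg/L and 2.73 ± 1.90 CPM at 2.68 mg/L, which differ by 3.38 on the log2 scale (2.79 to 3.97; adjusted p = 2.84e-13, edgeR). Control larvae held 78.4 ± 12.7 CPM of this gene, so larvae at 0.848 mg/L lay between those at 2.68 mg/L and the controls. FMg017122 averaged 3.54 ± 1.15 CPM at 0.848 mg/L and 0.911 ± 0.352 CPM at 2.68 mg/L. These differ by 1.95 on the log2 scale (0.75 to 3.15; adjusted p = 0.0302, edgeR).

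For other genes no difference from the highest dose was called, although the intervals leave room for one. The fourth-ranked rise differed by 0.05 on the log2 scale between 0.848 and 2.68 mg/L (95% interval -0.65 to 0.75; adjusted p = 0.963, edgeR), and the even seventh-ranked one by -0.15 (-0.57 to 0.27; adjusted p = 0.772, edgeR). The gene with the highest CPM differed by 0.05 (-0.32 to 0.43; adjusted p = 0.920, edgeR). The eighth-ranked rise, in contrast, was lower at 0.848 than at 2.68 mg/L with a log2 difference of -1.56 (-1.88 to -1.25; adjusted p = 1.83e-11, edgeR).

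Called at 0.848 but not at 2.68 mg/L were 7 of the higher and 6 of the lower genes, described here after their values were seen. The direct difference between the doses was called for 3 of these 13. The first averaged 91.4 ± 26.5 CPM at 0.848 mg/L, against 37.1 ± 9.19 CPM at 2.68 mg/L and 38.7 ± 15.6 CPM in controls, a log2 difference between the doses of 1.30 (0.66 to 1.94; adjusted p = 0.00474, edgeR). The second averaged 21.2 ± 3.07 CPM at 0.848 mg/L, against 13.3 ± 4.30 CPM at 2.68 mg/L and 15.4 ± 1.78 CPM in controls, or 0.67 on the log2 scale between the doses (0.39 to 0.95; adjusted p = 0.000758, edgeR). Both averaged higher at 0.848 mg/L than at 2.68 mg/L and than in controls. In both, the exposed larvae overlapped the controls. The lowest exposed larva had 45.9 CPM of the first, against 59.4 CPM in the highest control, and 18.0 against 18.5 CPM of the second. Levels of these genes at the lower 6PPD doses are not given here, so a peak between neighbouring doses was not shown.

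The third was a scarce gene that fell at 0.848 mg/L, with the largest fitted fall of all called genes. It had 2 to 9 counts in exposed larvae, against 11 to 42 counts in controls. It averaged 0.222 ± 0.159 CPM at 0.848 mg/L, against 1.07 ± 0.575 CPM at 2.68 mg/L and 1.15 ± 0.445 CPM in controls. The log2 difference between 0.848 and 2.68 mg/L was -2.25 (-3.32 to -1.17; adjusted p = 0.0035, edgeR). For the other 10 genes the difference between the doses was not called, so that a change present at 0.848 and absent at 2.68 mg/L was not shown for them.

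At nearly the same mass concentration, few genes were called between the parent compound and the quinone, most of them higher with 6PPD. Larvae at 0.848 mg/L 6PPD differed from larvae at 0.878 mg/L 6PPD-Q in 82 genes (0.38%), 71 higher with 6PPD (0.329%) and 11 lower (0.0509%). Of the genes called against controls, 65 of 162 were called higher with 6PPD than with 6PPD-Q and 8 of 28 lower, and none was called the opposite way. The median log2 difference between the chemicals was 0.72 over all 162 and -0.60 over all 28. A missing call therefore does not show equal levels. The doses differ slightly in mass and are not matched in moles. These counts and medians use the 5 larvae on which the 190 genes were chosen. The 82 became 132 by DESeq2 and 57 to 97 with single larvae left out. The 65 higher genes became 90 by DESeq2, 49 in a fit of the compared groups alone and 50 without exposed larva 5. The 8 lower genes became 3 in a fit of the compared groups alone and 5 without exposed larva 1 or 5 or without 6PPD-Q replicate 1, 4 or 5.

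FMg014221 averaged 189 ± 97.2 CPM at 0.848 mg/L 6PPD and 11.8 ± 7.01 CPM at 0.878 mg/L 6PPD-Q (SD, n = 5 each), or 3.99 on the log2 scale (95% interval 3.25 to 4.74; adjusted p = 1.24e-12, edgeR). FMg014186 averaged 79.8 ± 51.0 CPM with 6PPD and 6.86 ± 4.81 CPM with 6PPD-Q, or 3.53 on the log2 scale (2.44 to 4.63; adjusted p = 1.87e-05, edgeR). FMg007996 averaged 28.4 ± 10.4 CPM with 6PPD and 77.1 ± 22.4 CPM with 6PPD-Q, or -1.44 on the log2 scale (-1.96 to -0.92; adjusted p = 0.000394, edgeR). In all 3 genes the quinone larvae averaged closer to the controls than to the 6PPD larvae. FMg017122 averaged 3.54 ± 1.15 CPM with 6PPD and 11.2 ± 10.0 CPM with 6PPD-Q. Its log2 difference of -1.67 was not called (-2.73 to -0.61; adjusted p = 0.240, edgeR). Of the 10 largest rises among genes eligible for naming, 8 were called between the chemicals, and of the 10 largest such falls, 3 were.

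Against the shared controls, 0 of the 190 genes was called at 0.878 mg/L 6PPD-Q, where 0.00463% of all tested genes were called higher, and the median log2 fold change there was 0.13 for the 162 higher genes and -0.11 for the 28 lower ones. At 8.78 mg/L, the highest 6PPD-Q dose, 24 of the 162 were called higher, where 0.259% of all tested genes were. Of the 28, 0 were called lower, where 0.0417% of all tested genes were. Here too the genes were chosen against the same controls, which favours repeated calls. FMg014221 was 1 of the 24, with 44.0 ± 18.0 CPM in larvae at 8.78 mg/L 6PPD-Q, between the levels of 6PPD larvae at 0.848 mg/L and of controls.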

How the data were processed

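The authors deposited whole-number counts per gene for 26150 genes in 80 libraries. Per the submitters' processing notes, HTSeq 0.13.5, STAR 2.7.10a, Trim Galore 0.6.6, bcl2fastq 2.20.0, SAMtools 1.13, edgeR, FastQC and MultiQC 1.12 were used. Not given in the sources used here: genome build, annotation and strand setting, so reads of overlapping or antisense genes may be mixed. Per the labels' protocols, a SENSE mRNA kit of Lexogen made the libraries. The 5 lines that name no gene (reads outside genes took 9.88% to 11.1% of exposed and 9.25% to 11.7% of control libraries) were left out of library sizes and tests. The deposited log2 tables were not used.

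In R 4.3.3, edgeR 4.0.16 (TMM, filterByExpr by group, estimateDisp, glmQLFit, glmQLFTest) fitted 21599 genes in all 80 libraries with 1 coefficient per group. Read from that fit were 4 contrasts of the exposed larvae (with controls, lower doses, 2.68 mg/L and 6PPD-Q) and the contrast of every other group with controls. The shared biological coefficient of variation was 28.1%. Benjamini-Hochberg adjustment ran over all tested genes, with a threshold of 0.05. The edgeR test was also run on counts simulated from its own model, which cannot show how well that model suits these larvae. Alternatives used DESeq2 1.42.0, limma 3.58.1 (voom), other factors, filters and samples, a replicate block, and omission of each larva. Pairs of libraries differed beyond sampling noise (chi-square per degree of freedom at least 20.0 in exposed and 15.0 in control pairs), so each counted as 1 sample.

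Genes were named by rule: called, a mean of at least 5 CPM over the 15 larvae, all exposed larvae on 1 side of the control mean, the 10 largest fold changes each way, and the 5 highest CPM each way among called genes. Gene lists and cell type markers hold symbols and could not be matched. The larvae, lists, tests and rules were chosen with earlier results of these data known.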

Additional observations from a re-analysis of the deposited data

Results flagged for a closer look

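In the third-ranked rise, exposed larva 5 stood apart from the other four with 493 CPM. In the fifth most counted gene among those that rose, exposed larva 1 stood apart with 611 CPM, against 354 to 408 CPM in the other exposed larvae. In the ninth-ranked fall, control replicate 1, a plate A larva, stood apart with 42.1 CPM and was the highest control. Control replicate 6 stood apart from the other controls in the share of reads aligned to several places, at 9.76%. Each of these values lay further from its neighbour than Dixon's criterion allows, which happened in 4 of 72 groups of values, and chance gives about 1 in 20.

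The exposed larvae differed by a direct edgeR test from larvae at the 4 lower 6PPD doses in 253 genes, from larvae at 2.68 mg/L 6PPD in 1575 genes and from larvae at 0.878 mg/L 6PPD-Q in 82 genes. No cause of these differences was tested.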

How the results depend on the processing

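The count of lower genes was 28 as reported, 52 by DESeq2, 49 in a fit of the compared groups alone, and 13 to 29 with single larvae left out, the lowest without exposed larva 5. The total of 190 ranged from 131 to 187 with single larvae left out. Some of the other alternatives called more genes and some fewer. A fit of the compared groups alone called 217 higher and 49 lower, with 171 of the 190 calls kept. DESeq2 called 192 higher and 52 lower, with all 190 kept. With a replicate block, 106 genes were called, 91 higher and 15 lower. The replicate numbers follow the order of the samples within each group, so the block rests on that order alone. Same-numbered larvae had correlations of -0.12 to -0.02, and the block gives controls 6 to 10 no exposed partner. The comparison with 4 lower doses gave 166 to 267 genes with single larvae left out, the lowest without exposed larva 5. That with 2.68 mg/L gave 1575 genes, but 693 without the plate A libraries, 657 in a fit of the compared groups alone and 696 to 2020 with single larvae left out. That with 6PPD-Q gave 82 genes, but 132 by DESeq2 and 57 to 97 with single larvae left out. The cause was not tested. Of the 190 genes, 97 higher and 10 lower ones were called in all 15 fits with a larva left out. In all 23 alternatives, the replicate block among them, 82 higher and 7 lower ones were called. No gene changed sign where it was tested. Of 621 values of the 27 named genes under alternatives, 582 stayed past the threshold and 39 did not; 19 genes stayed in every one. Counts of a few reads per larva limit the scarcest genes.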

Other observations

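Called genes often carried neighbouring identifier numbers. Of the 162 higher genes, 17 (10.5%) had a higher gene with the next number up or down, in 9 pairs, while 1.39% of all tested genes stood beside a number called higher. Of the 28 lower genes, 2 (7.14%, 1 pair) did, while 0.241% of all tested genes stood beside a number called lower. No pair joined a higher and a lower gene. Whether the numbers follow the order along the genome, and whether neighbours share reads as near-identical copies, was not tested.

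The longest run surrounds FMg014186, whose lower and upper neighbours in number were both called. The lower neighbour averaged 14.5 CPM in exposed larvae and 6.02 CPM in controls (log2 fold change 1.27 ± 0.27, adjusted p = 0.00242, edgeR). The upper neighbour averaged 25.4 CPM in exposed larvae and 7.90 CPM in controls (log2 fold change 1.68 ± 0.33, adjusted p = 0.000691, edgeR). The 3 genes of this run did not all move in step across larvae. Larva 4 had 15.2 CPM of the lower neighbour, the second highest exposed value, and 14.0 CPM of FMg014186, the lowest. Of the upper neighbour it had 17.5 CPM, close to the lowest exposed value of 17.1 CPM. In another pair of called neighbours, chosen after its values were seen, both genes ranked the exposed larvae in the same order. Larva 1 was the highest, with 30.4 and 6.58 CPM, and larva 4 the lowest, with 8.39 and 2.21 CPM. Whether neighbours as a set move in step was not tested. The third-ranked rise, too, had a called neighbour, the gene with 81 counts in exposed larva 5 and 3 in all controls.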
